A study of Mus musculus with 86 samples.

Results

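The genes described are 10 macrophage genes: the general markers Cd68, Lyz2, Adgre1, Csf1r, Mrc1, C1qa and Cd163, the secreted chitinase-like protein gene Chil3, and the chemokine genes Ccl6 and Ccl9. They were taken by name from a table of 42807 genes, in which all 10 were found (Adgre1 under its older symbol Emr1), and all 10 passed the filter on low counts in every fit. The table holds RNA-seq counts from 86 libraries, 43 from the gastrocnemius (GA, rich in fast fibres) and 43 from the soleus (SO, rich in slow fibres) of male C57BL/6N mice supplied at 10 weeks of age. Each muscle had 9 groups. Non-treated mice (NT) had PBS by injection and by gavage. All other mice had dexamethasone (DEX), a synthetic glucocorticoid, at 25 mg/kg a day into the peritoneum for 10 days, with a gavage 30 min after the injection. The DEX group was gavaged with PBS, and 6 groups had JGT (Jakyak-gamcho-tang), a herbal extract from roots of peony and liquorice, as JGT02, JGT03 or JGT04 (peony to liquorice 2:1, 1:1 and 1:2) at 100 or 400 mg/kg. The last group had the plant polyphenol resveratrol (RSV), at 200 mg/kg. Extracts and resveratrol were given in carboxymethyl cellulose and DEX and NT mice had PBS alone, so the effect of a treatment and that of the gavage medium cannot be told apart. DEX and JGT04 at 400 mg/kg had 4 libraries in each muscle and the other groups 5.

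Macrophages live in muscle between the fibres and are joined after injury by monocytes from the blood, which enter through the receptor Ccr2 and its ligands and turn into macrophages that clear dead fibres and then help new ones to form. Csf1r is the receptor for the growth factors Csf1 and Il34 that keep macrophages alive. Mrc1 and Cd163 are scavenger receptors of resident and repair macrophages, C1qa is a chain of complement C1q, Lyz2 is lysozyme, Cd68 is a lysosomal glycoprotein and Adgre1 encodes the F4/80 antigen. Chil3 (Ym1), Ccl6 and Ccl9 are secreted, the last 2 as CC chemokines that act on Ccr1. Glucocorticoids are known to lower many inflammatory genes and to raise some scavenger receptors in macrophages.

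Ccl6 and Ccl9 are neighbours on chromosome 11, both on the minus strand (GRCm38, GENCODE vM21: Ccl6 at chr11:83587882-83593087, Ccl9 at chr11:83572919-83578636), and Chil3 lies on the minus strand of chromosome 3 at chr3:106147554-106167564. These 3 genes carried most of the differences reported below, so the 250 bases before their starts are shown (RefSeq, GRCm38.p6, read 5′ to 3′ along the gene's strand). Capitals mark GGAA on either strand, the core letters bound by ETS factors such as PU.1, a factor that macrophages need.
Ccl6, chr11:83593088-83593337, minus strand: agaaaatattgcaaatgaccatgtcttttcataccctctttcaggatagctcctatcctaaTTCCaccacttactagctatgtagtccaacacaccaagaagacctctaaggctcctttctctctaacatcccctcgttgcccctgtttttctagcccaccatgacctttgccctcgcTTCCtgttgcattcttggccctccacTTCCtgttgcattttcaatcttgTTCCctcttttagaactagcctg
Ccl9, chr11:83578637-83578886, minus strand: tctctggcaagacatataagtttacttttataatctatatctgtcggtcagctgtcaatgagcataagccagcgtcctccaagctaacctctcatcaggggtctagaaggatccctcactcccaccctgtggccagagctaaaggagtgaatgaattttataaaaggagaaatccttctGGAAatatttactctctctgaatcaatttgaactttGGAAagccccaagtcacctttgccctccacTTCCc
Chil3, chr3:106167565-106167814, minus strand: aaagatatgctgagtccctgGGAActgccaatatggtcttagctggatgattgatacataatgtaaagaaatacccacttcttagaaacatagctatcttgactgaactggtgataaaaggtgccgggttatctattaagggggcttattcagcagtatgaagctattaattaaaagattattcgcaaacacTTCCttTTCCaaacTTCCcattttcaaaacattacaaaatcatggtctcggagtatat
The 4 letters occurred 4 times before Ccl6, 3 times before Ccl9 and 4 times before Chil3. Of 32851 RefSeq promoters of this length 93.4% hold them at least once, as did all 7 members whose promoter was searched. The longer PU.1 letters GAGGAA were found before Cd68 and Mrc1 (2 of 7 members, 23.3% of promoters). The full glucocorticoid response element was before none of the 7 (0.0304% of promoters), and AGAACA, which is one arm of it, was before Cd163 (16.1%). The C/EBP palindrome TTGCNNAA was found before Cd68 (9.56%), the NF-kB motif before none (0.98%), and the TATA box TATAAA before Ccl9 (12.4%). All were searched on both strands, and GAGGAA contains GGAA.

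Values are CPM, counts divided by the scaled library total in M counts, on a scale shared by all 86 libraries, whose totals ran from 18.8 to 34.6 M counts (median 27.5 M). They come from whole muscle, in which fewer macrophages and less RNA per macrophage cannot be told apart. Changes are log2 fold changes ± standard error (SE) from edgeR with p-values adjusted over all genes tested, and a gene passed at an adjusted p under 0.05. These p-values measure the spread between the libraries, which the labels number as mice. The labels name 1 batch. Of 6 glucocorticoid targets, Lcn2 and Per1 were higher and Zbtb16 and Fkbp5 lower over all DEX-receiving groups in both muscles without the 4 libraries named next (Fkbp5 −0.38 ± 0.09 in GA and −0.22 ± 0.08 in SO), so the list did not move one way. Lcn2 separated NT from DEX-receiving mice without overlap: it was at 0.812 to 4.27 CPM in GA of NT mice and at 60.1 to 141.9 in the 37 DEX-receiving GA libraries, and at 0.48 to 1.85 against 16.0 to 35.4 in SO. Mean CPM and log2 values leave out 4 libraries where this is stated. They are S2-4 (SO, DEX, mouse 4), G3-1 (GA, JGT02 at 100 mg/kg, mouse 1) and S3-5 (SO, JGT02 at 100 mg/kg, mouse 5), in which macrophage genes stood far above all others, and S4-1 (SO, JGT02 at 400 mg/kg, mouse 1). S2-4, G3-1 and S3-5 were thus picked by the genes tested here, and all received DEX. P-values without them do not allow for that choice. S4-1 goes against its label as a slow muscle, with the fast myosin Myh4 at 25510 CPM (other SO libraries up to 2820) and the slow myosin Myh7 at 14.0 (others from 4387), but none of its 10 macrophage genes was above the other SO libraries. Without these libraries 82 remained, 42 in GA and 40 in SO, and the common dispersion, a measure of the spread over all genes, was 0.00699 in place of 0.0379 in GA, and 0.0142 in place of 0.0585 in SO.

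In NT mice Lyz2 was the highest of the 10 genes in both muscles when CPM was divided by the summed exon length, at 22.9 ± 2.78 CPM per kb in GA and 17.0 ± 6.78 in SO (SD, n = 5). C1qa was next with 8.13 ± 1.29 and 6.12 ± 3.16 CPM per kb. Adgre1 was ninth (0.664 ± 0.12 and 0.334 ± 0.176) and Chil3 last (0.0846 ± 0.0519 and 0.198 ± 0.183). In between, in GA, Ccl6, Cd68 and Csf1r differed from their neighbours in this run by less than the larger SD, as did Mrc1, Ccl9 and Cd163, whereas Csf1r (2.08 ± 0.23) and Mrc1 (1.57 ± 0.224) differed by more.

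The scavenger receptors Mrc1 and Cd163, and also Adgre1, Csf1r and Ccl6, were lower in SO than in GA of NT mice. Mrc1 stood at 8.53 to 12.1 CPM in the 5 GA libraries and at 3.25 to 6.09 in the 5 SO libraries, and Cd163 at 5.17 to 6.02 and 1.55 to 4.06. The muscles did not overlap for either gene. Adgre1 stood at 1.73 to 2.71 against 0.406 to 1.85 CPM and Csf1r at 10.6 to 14.1 against 3.67 to 11.3, both with some overlap. Without the 4 libraries the SO to GA difference was −1.13 ± 0.20 for Mrc1 (adjusted p = 8.18e-07), −1.05 ± 0.18 for Cd163 (3.12e-07), −0.98 ± 0.32 for Adgre1 (0.00573), −0.97 ± 0.34 for Ccl6 (0.012) and −0.63 ± 0.22 for Csf1r (0.0115). That makes 5 of 10 lower in SO and 0 higher, where 59.4% of all genes passed, with a median over the 10 of −0.68 against 0.02 over all genes. With all libraries in the fit 0 of the 10 passed, against 45.8% of all genes, although NT holds none of the 4 libraries. The call for Ccl6 was lost without GA NT mouse 3 (adjusted p = 0.102) and that for Csf1r without SO NT mouse 5 (0.0652), and only Mrc1 and Cd163 passed when a term for the set of libraries was added. With that term Csf1r was as large (−0.66, adjusted p = 0.175), and Adgre1 (−0.58, 0.441) and Ccl6 (−0.40, 0.675) were smaller. All GA NT libraries lie in one set and all SO NT libraries in another. Such a set is a run of libraries in the order of the table, with breaks after mouse 3 of GA JGT04 at 100 mg/kg and after mouse 3 of SO JGT02 at 400 mg/kg, and the labels name no such sets. Of the 13 other resident macrophage genes on a list, 10 were lower in SO, among them Cbr2, Folr2 and F13a1, and Gas6 and Vsig4 were higher (median −1.34). Cbr2 was also above all other SO libraries in S4-1, where none of the 10 genes was.

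**Figure D1:**
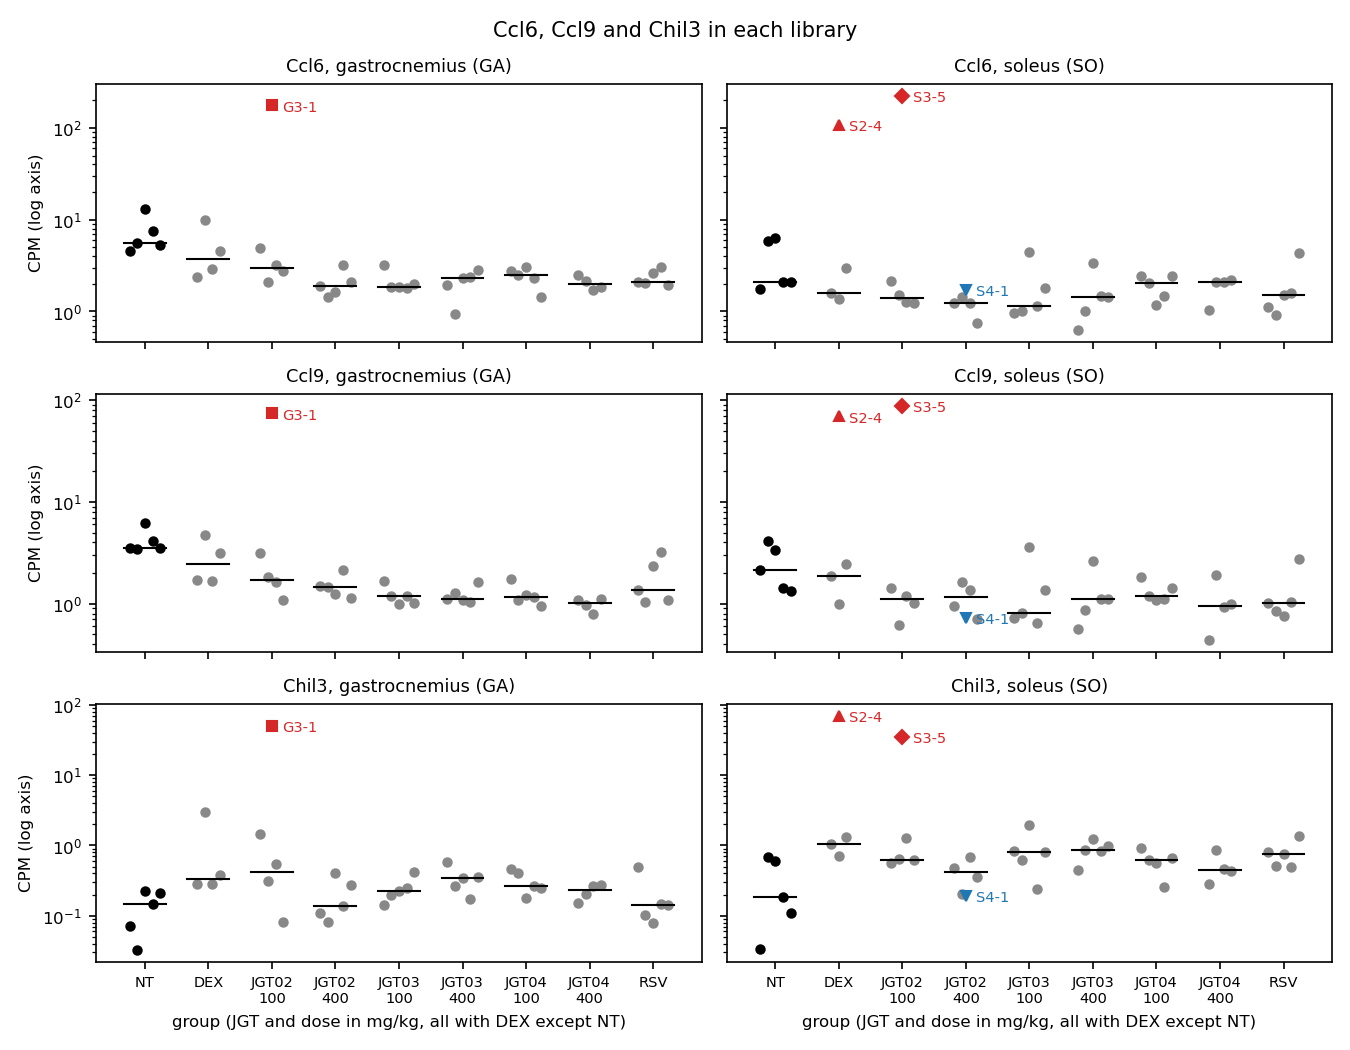
CPM of Ccl6, Ccl9 and Chil3 (log axis) in every library, by group, in GA (left) and SO (right). Black points are NT, grey points DEX-receiving libraries, lines are medians without the 4 named libraries, red symbols are S2-4, G3-1 and S3-5, and the blue triangle is S4-1. The red symbols stand at 35.2 to 222 CPM, above every other library of their muscle, and for Ccl6 and Ccl9 in GA nearly all grey points lie under the black ones.

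In G3-1 and S3-5 all 10 genes stood above every other library of their muscle. G3-1 held Lyz2 at 1089 CPM, C1qa at 260.9, Ccl6 at 176.5, Mrc1 at 165.0, Csf1r at 158.9, Cd68 at 136.2, Ccl9 at 74.1, Adgre1 at 72.3, Chil3 at 50.6 and Cd163 at 49.0. The other 42 GA libraries reached at most 40.0 CPM for Lyz2, 10.6 for C1qa, 13 for Ccl6 and 2.95 for Chil3. Over the median of its own group's other 4 libraries the 10 genes were 9.58- to 118.9-fold higher in G3-1 (median 39.8), with Cd163 lowest and Chil3 highest. S3-5 held Lyz2 at 1348 CPM, C1qa at 347.8, Ccl6 at 222.0, Csf1r at 183.5, Mrc1 at 170.1, Cd68 at 145.2, Ccl9 at 87.1, Cd163 at 69.9, Adgre1 at 65.3 and Chil3 at 35.2. The other 40 SO libraries reached at most 54.7 CPM for Lyz2, 13.8 for C1qa, 6.34 for Ccl6 and 1.97 for Chil3. Over its own group the 10 genes were 30.9- to 160.7-fold higher in S3-5 (median 63.7), with Csf1r lowest and Ccl6 highest. The TMM factors that scale these libraries were 1.99 and 2.13, against 0.903 to 1.11 in the 82 others, so scaling by the total count alone would put them higher still, with Lyz2 at 2163 and 2864 CPM.

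**Figure D2:**
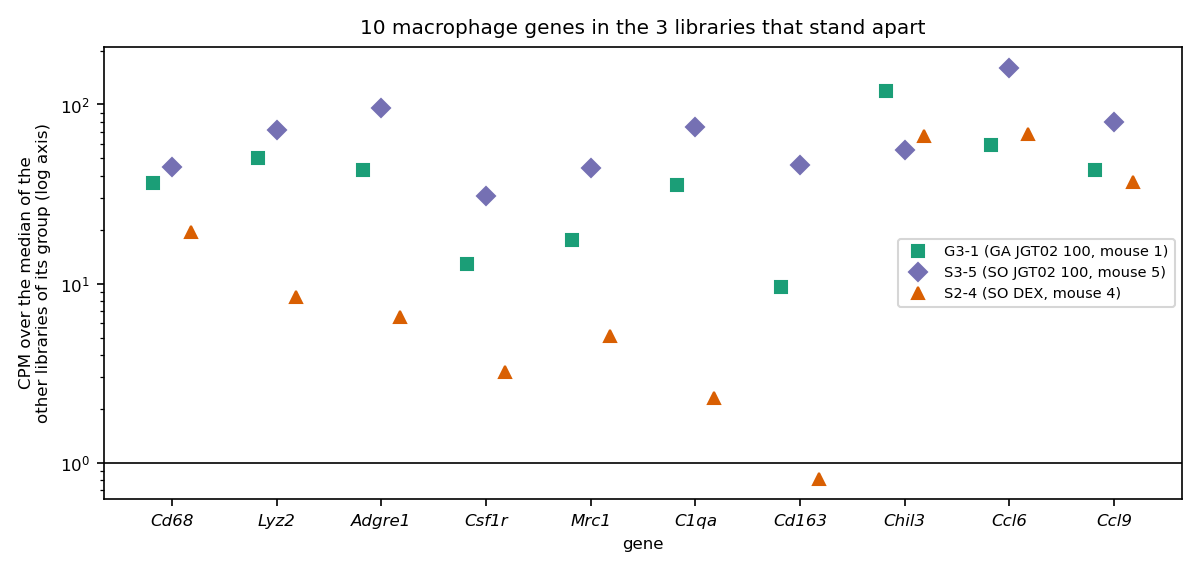
CPM of each of the 10 genes in G3-1, S3-5 and S2-4 divided by the median of the other libraries of its group (log axis, 4, 4 and 3 libraries). The line at 1 marks no difference. In G3-1 and S3-5 all points lie above 9, and in S2-4 they run from 0.816 for Cd163 to 68.1 for Ccl6.

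S2-4 showed another balance between the same genes. Ccl6 stood at 107.5 CPM, against 1.37, 1.58 and 3.01 in the other 3 DEX libraries of SO. Ccl9 stood at 69.3, against 0.995, 1.87 and 2.44, and Chil3 also at 69.3, against 0.705, 1.04 and 1.33. These were 68.1-, 37.0- and 66.9-fold over the group's median. Cd68 was 19.3-fold higher (57.7 CPM), Lyz2 8.39-fold (188.0), Adgre1 6.55-fold (5.74), Mrc1 5.11-fold (21.6), Csf1r 3.20-fold (27.5) and C1qa 2.31-fold (17.7). Cd163 alone was not raised. It stood at 1.73 CPM, below the other 3 DEX libraries (1.82 to 2.78).

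As shares of the 10 genes' summed CPM, Ccl6, Ccl9 and Chil3 made up 19%, 12.2% and 12.2% in S2-4, each above all 40 other SO libraries (up to 8.01%, 5.89% and 2.90%). Lyz2, Csf1r, Mrc1, C1qa and Cd163 had smaller shares there than in any of the 40, with Cd163 at 0.306% against 2.1% to 6.25%. In G3-1 and S3-5 Lyz2 took 48.8% and 50.4%, above the other libraries of their muscles (up to 41.2% and 49.2%), and Csf1r took 7.12% and 6.86%, below them (from 11.9% and 10.7%). Ccl9 and Chil3 lay within the range of shares in both, and Cd163 was below it in G3-1 (2.20% against 4.34% or more) and within it in S3-5.

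Other cell markers moved with these libraries. Of 25 other macrophage markers, 25 were above all other libraries of the muscle in G3-1, 25 in S3-5 and 21 in S2-4. The share of all genes that stood above all other libraries is not given. These counts, those of the 10 genes and those of the lists that follow are thus a description. Of 13 resident macrophage markers, such as Lyve1 and Folr2, the counts were 11, 12 and 2. Their sum in S2-4 was 205.5 CPM, within the other SO libraries (131.6 to 208.2), and in S3-5 991.6. It was 561.5 in S4-1, where none of the 10 genes was above the other SO libraries. The sum is thus no measure of macrophages alone. The monocyte receptor Ccr2 stood at 48.1 CPM in G3-1, 33.8 in S3-5 and 58.4 in S2-4, with at most 4.27 in other GA and 4.62 in other SO libraries. Ccr1, a receptor for Ccl6 and Ccl9, stood at 13.2, 11.8 and 10.7 CPM, with at most 0.529 and 0.463 elsewhere. Ccl2, a ligand of Ccr2, stood at 20.2, 16.8 and 27.9 CPM against at most 3.72 and 1.44.

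Neutrophil markers were above all others for 4 of 12 genes in G3-1, 3 in S3-5 and 5 in S2-4, with summed levels of 15.9, 8.70 and 6.15 CPM against 0.645 to 14.5 in GA and 0.402 to 3.22 in SO, and Ly6g, Mpo and Elane were among those not above. B cell markers were above for 0, 1 and 0 of 5 genes and T cell markers for 4, 4 and 3 of 9. All 4 pan-leukocyte genes and all 7 MHC class II genes were above all others in all 3 libraries. The 6 genes of regenerating fibres, which include the embryonic myosin Myh3, summed to 2494 CPM in G3-1 (others 41.1 to 85.0) and 2282 in S3-5 (others 84.5 to 225.8), and to 123.2 in S2-4, inside the SO range. The 4 adult myosin genes summed to 7443 CPM in G3-1 (others from 42687), 1824 in S3-5 and 10927 in S2-4 (others from 12835). The part of these markers in the levels of the 10 genes was not tested.

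**Figure D3:**
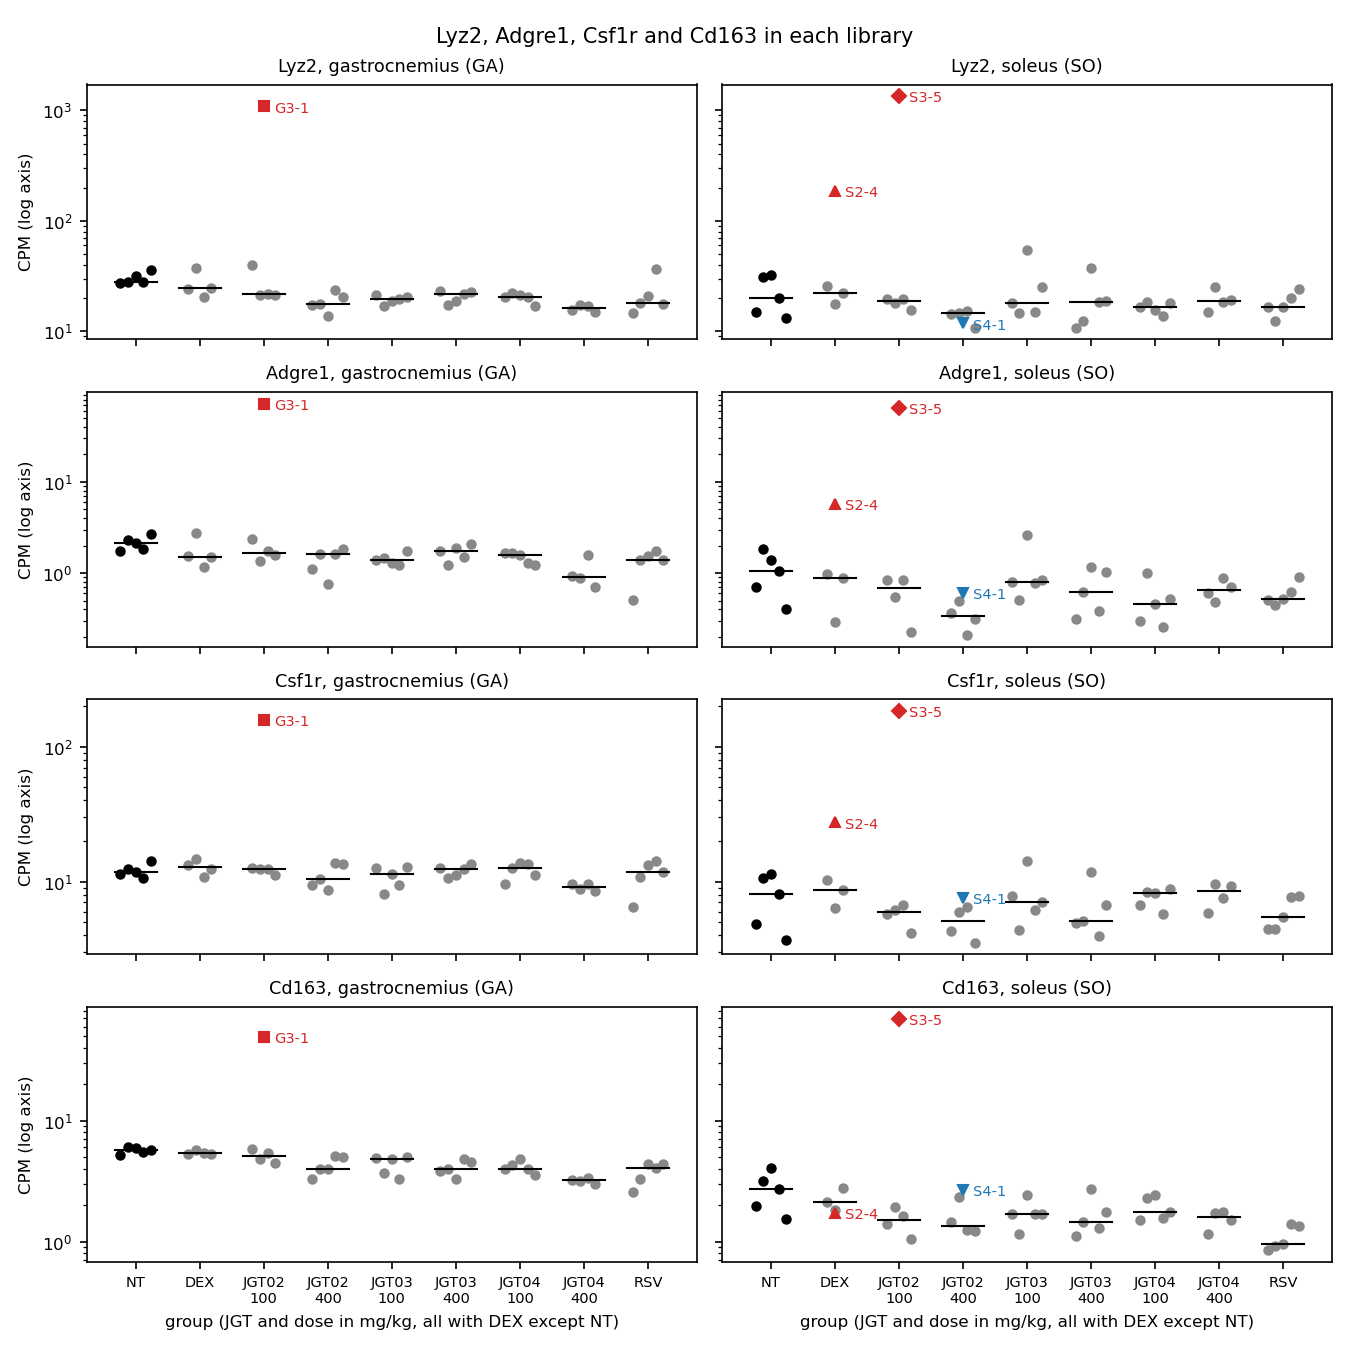
CPM of Lyz2, Adgre1, Csf1r and Cd163 (log axis) in every library, by group, with symbols and medians as for the chemokines. Outside the 3 red libraries Csf1r spans 6.52 to 14.6 CPM in GA and 3.53 to 14.2 in SO, and Cd163 in S2-4 lies among the other soleus libraries.

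Chil3 was the only one of the 10 genes to differ between DEX and NT mice in both muscles without the 4 libraries, and it was higher with DEX. In GA its 5 NT libraries stood at 0.0325, 0.0723, 0.148, 0.211 and 0.227 CPM (1 to 6 counts) and its 4 DEX libraries at 0.28, 0.286, 0.382 and 2.95 (7 to 81 counts). The groups did not overlap, but mouse 2 of the DEX group stood apart from the other 3. The log2 change was 2.80 ± 0.66 (adjusted p = 0.00115), and without that mouse it was 1.18 and did not pass (0.192). In SO the NT libraries stood at 0.0333, 0.111, 0.183, 0.605 and 0.681 CPM (1 to 18 counts) and the 3 DEX libraries other than S2-4 at 0.705, 1.04 and 1.33 (17 to 35 counts), also without overlap. The log2 change was 1.68 ± 0.55 (adjusted p = 0.0145), and 1.42 without mouse 3 (0.101). Of the 31-base words in Chil3, 41.5% also occur in other genes, 28.9% in Chil4, so its counts may be split between them.

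Counts over the 10 genes were thus 1 higher and 0 lower in GA, where 26.4% of all genes passed (13.2% higher, 13.2% lower), and 1 higher and 0 lower in SO, where 36.1% passed. The median log2 change of the 10 was −0.08 in GA and −0.06 in SO, against −0.01 and 0.03 over all genes. With all libraries none of the 10 passed in GA (8.38% of all genes did). In SO, with S2-4 in the DEX group, Chil3 (5.81 ± 1.18, adjusted p = 0.000837), Ccl6 (2.98 ± 1.10, 0.0484) and Ccl9 (2.92 ± 1.02, 0.0376) were higher with DEX, against 20.8% of all genes. Without S2-4 the values of Ccl6 and Ccl9 turned to −0.85 ± 0.50 (0.191) and −0.48 ± 0.49 (0.471).

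**Figure D4:**
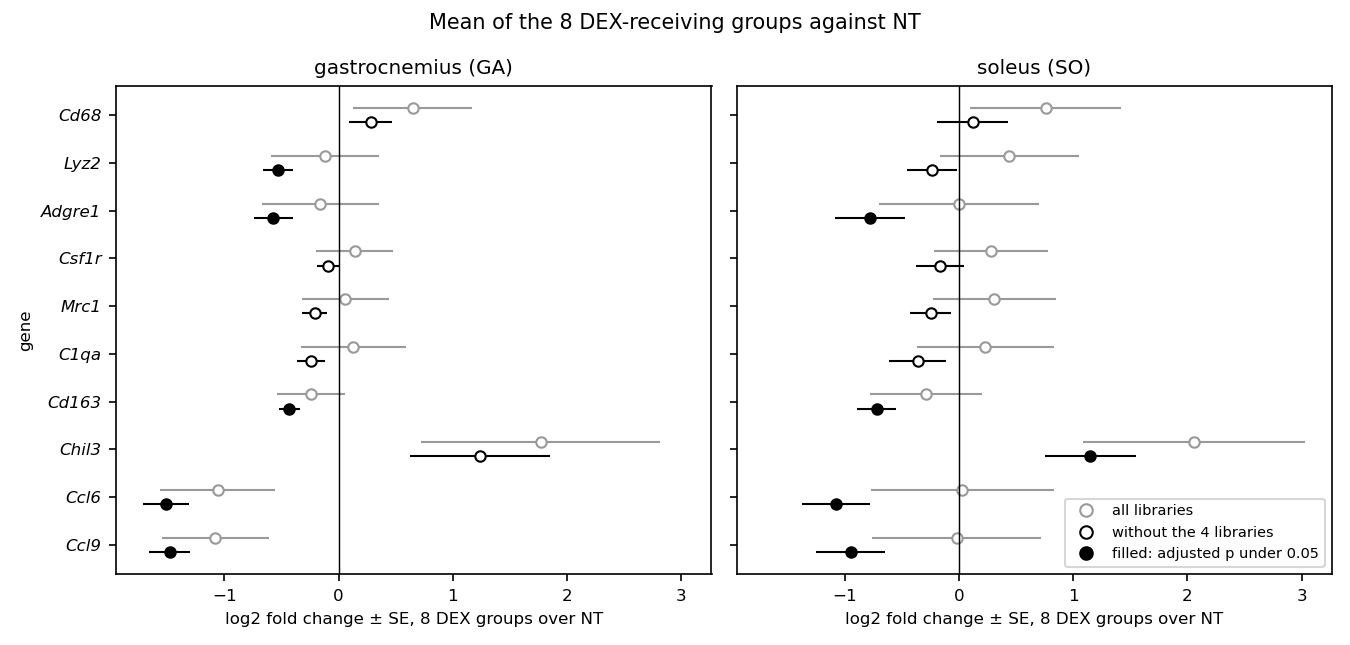
Log2 fold change ± SE of the mean of the 8 DEX-receiving groups over NT for the 10 genes in GA (left) and SO (right), with all libraries (grey) and without the 4 (black). Filled points passed at an adjusted p under 0.05. Without the 4 libraries Ccl6 and Ccl9 lie lowest, at −1.51 and −1.48 in GA and −1.08 and −0.95 in SO.

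Over all 8 groups that received DEX, the chemokine genes Ccl6 and Ccl9 were lower than in NT mice once the 4 libraries were left out. G3-1, left out in GA, received DEX and was picked for its high levels of these genes, which lowers the DEX side. With it 0 of the 10 genes passed, at adjusted p of 0.0982 or more. Ccl6 in GA stood at 4.59, 5.28, 5.59, 7.53 and 13 CPM in NT mice and at 0.94 to 9.91 (median 2.33) in 37 DEX-receiving libraries, 35 of which lay under the lowest NT library. Ccl9 stood at 3.48, 3.5, 3.52, 4.14 and 6.27 CPM in NT mice and at 0.788 to 4.74 (median 1.22) in the others, 36 of 37 under the lowest. The differences were −1.51 ± 0.20 for Ccl6 (adjusted p = 6.09e-08) and −1.48 ± 0.18 for Ccl9 (1.63e-08). In mice 1 to 4 of the DEX group itself Ccl6 stood at 2.39, 9.91, 2.92 and 4.55 CPM and Ccl9 at 1.72, 4.74, 1.68 and 3.16, with mouse 2 the highest for both. Against NT these were −0.55 ± 0.30 (0.174) and −0.57 ± 0.27 (0.114), and without mouse 2 they passed at −1.14 (0.004) and −0.94 (0.0138).

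The markers Lyz2, Cd163 and Adgre1 were also lower in GA over the 8 groups, though not in DEX alone (Lyz2 −0.18 ± 0.19, Cd163 −0.08 ± 0.13 and Adgre1 −0.32 ± 0.24 against NT). Lyz2 stood at 27.5 to 36.1 CPM in NT and at 13.9 to 40.0 (median 20.6) in DEX-receiving mice, 34 of 37 under the lowest NT library (−0.53 ± 0.13, adjusted p = 0.000861). Of its 31-base words, 32.8% also occur in Lyz1. Cd163 stood at 5.17 to 6.02 and 2.58 to 5.81 CPM, 31 of 37 under the lowest and 0 of the 4 with DEX alone (−0.43 ± 0.09, 0.000189). Adgre1 stood at 1.73 to 2.71 and 0.501 to 2.73 CPM, 30 of 37 under the lowest (−0.57 ± 0.17, 0.00533), and no longer passed with the term for the set of libraries (0.0702). Csf1r (−0.09 ± 0.10), Mrc1 (−0.21 ± 0.11), C1qa (−0.24 ± 0.12), Cd68 (0.28 ± 0.19) and Chil3 (1.24 ± 0.61, 0.0912) did not pass. So 5 of 10 were lower and 0 higher in GA, where 42.7% of all genes passed, 20.6% higher and 22.1% lower, and the medians were −0.34 for the 10 and −0.01 for all genes. With G3-1 in the fit 0 of 10 passed, against 21.2% of all genes.

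In SO Ccl6, Ccl9, Cd163 and Adgre1 were lower and Chil3 higher. Ccl6 stood at 1.76, 2.07, 2.12, 5.87 and 6.34 CPM in NT and at 0.628 to 4.41 (median 1.48) in 35 DEX-receiving libraries, 23 of them under the lowest NT library (−1.08 ± 0.30, adjusted p = 0.00414). Ccl9 stood at 1.33, 1.43, 2.13, 3.38 and 4.16 CPM against 0.44 to 3.63 (median 1.09), also 23 under the lowest (−0.95 ± 0.30, 0.0117). The groups overlapped for both genes. The other values were −0.72 ± 0.17 for Cd163 (0.00113), −0.78 ± 0.31 for Adgre1 (0.043) and 1.15 ± 0.40 for Chil3 (0.0217), which stood above the highest NT library in 17 of 35. Lyz2, lower in GA, was at −0.24 ± 0.22 in SO (0.401). That makes 4 lower and 1 higher of 10, where 37.8% of all genes passed, with medians of −0.30 for the 10 and 0.01 for all genes. These calls changed with the libraries used. With all libraries 0 of 10 passed (17.8% of all genes), and S2-4 and S3-5 are DEX-receiving. Without the 4 libraries Ccl6 was −0.78 (adjusted p = 0.0654) when NT mouse 3 was left out too, and Ccl9 was −0.69 (0.11) without NT mouse 2 and −0.81 (0.0602) without NT mouse 3. Chil3 was 0.85 (0.1), 1.01 (0.074) and 0.94 (0.0883) without NT mouse 1, 4 or 5. Adgre1, close to the threshold, was −0.50 (0.267) without NT mouse 2. It stayed at −0.67 to −0.79 but did not pass without any 1 of 5 other libraries (NT mice 3 and 4, DEX mouse 2, JGT02 at 400 mg/kg mouse 4 and JGT04 at 400 mg/kg mouse 2). With the term for the set of libraries none of the 5 passed, with Ccl6 at −0.80 (0.426), Ccl9 at −0.74 (0.44), Cd163 at −0.32 (0.557), Adgre1 at −0.30 (0.824) and Chil3 at 0.73 (0.538). Whether the change with DEX alone differed between the muscles was tested directly, and 0 of 10 passed with all libraries (8.36% of all genes) or without the 4 (29.3%). The nearest was Chil3, at −1.16 ± 0.92 (0.348).

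The other genes of the pathway were read from lists that stand beside the 10 genes, without the 4 libraries and over all 8 DEX-receiving groups. Those groups, other than DEX alone, also had an extract or resveratrol. Of the other macrophage markers 1 of 24 tested in GA was higher (Ms4a7) and 5 were lower (Cx3cr1, Itgam, Mpeg1, Cd84 and C1qb). Ms4a7 was low, at 0.312 ± 0.0546 CPM in NT and 0.717 ± 0.46 in DEX alone (SD). Of 25 in SO 1 was higher (Lgals3) and 5 lower, among them Cx3cr1, Itgam and Mpeg1. Itgam, an integrin chain of myeloid cells, was at −1.21 ± 0.22 in GA (adjusted p = 2.25e-05) and −1.28 ± 0.31 in SO (0.0012). With DEX alone against NT, Itgam did not pass in either muscle. The medians of the list were −0.23 and −0.24. With all libraries 0 passed in either muscle. Over all genes 22.1% were lower and 20.6% higher in GA and 19.5% and 18.4% in SO, so the lower markers were near the share over all genes. Resident markers were 1 higher (Maf) and 2 lower (Cbr2 and F13a1) of 12 in GA and 1 higher (Maf) of 12 in SO. Maf stood at 407.3 ± 53.4 CPM in GA and 38.4 ± 4.8 in SO of NT mice (SD). It was below all other GA libraries in G3-1, and above all other SO libraries in S3-5 and in S4-1. Maf thus did not follow the 10 genes throughout, and its rise is not a measure of macrophages alone. Cbr2 fell by 1.34 on the log2 scale in GA (SE 0.11, 4.47e-13). Cbr2 was above all other libraries of the muscle in G3-1 and S3-5, but also in S4-1, where none of the 10 genes was. Its fall is thus not a measure of macrophages alone either.

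Among the 13 chemokine and receptor genes tested in GA, 3 were higher and 5 lower, and among 12 in SO 3 were higher and 4 lower, where 42.7% of all genes passed in GA and 37.8% in SO. Ccr2, the receptor that brings monocytes into tissue, was lower in both muscles, at −2.11 ± 0.22 in GA (adjusted p = 2.5e-10) and −1.57 ± 0.35 in SO (0.000534). With DEX alone against NT, Ccr2 was at −1.15 ± 0.33 in GA (0.0078) and did not pass in SO. Cxcl13, a B cell chemokine, was higher in both, at 1.69 ± 0.22 in GA (5.56e-08), and Ccl2 was higher in GA (1.52 ± 0.44, 0.00472). Ccl2 was low, at 0.244 ± 0.105 CPM in NT and 1.41 ± 1.57 in DEX alone in GA, where the SD exceeded the mean. Of the Csf1 and Csf2 pathway 1 of 8 genes was higher (Cebpa) and 3 lower (Csf2ra, Il34 and Csf2rb) in GA, and 3 were higher (Cebpa, Il34 and Csf2rb) and 1 lower (Csf2ra) in SO, 4 of 8 in each muscle and near those shares. Il34, a ligand of Csf1r made by tissue cells, thus went down in GA (−0.27 ± 0.09, 0.0117) and up in SO (0.32 ± 0.08, 0.00207). Cebpa, which macrophages share with other cells, was at 1.04 ± 0.19 in GA (2.15e-05) and 1.97 ± 0.40 in SO (0.000199).

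The largest list changes were in antigen presentation. All 6 MHC class II genes tested in GA were lower (median −3.02) and 5 of 6 in SO (median −2.47). For this and the next lists, 22.1% of all genes were lower and 20.6% higher in GA, and 19.5% and 18.4% in SO. Cd74, the invariant chain, was at −3.06 ± 0.13 in GA (adjusted p = 2.2e-21), and the list summed to 47.4 to 84.8 CPM in NT and 5.95 to 17.9 in DEX-receiving GA libraries. Macrophages, dendritic cells and B cells all carry these genes. Of 4 pan-leukocyte genes, 3 were lower in GA (Ptprc, Coro1a and Laptm5) and 2 in SO (Ptprc and Laptm5), with Ptprc, the leukocyte antigen CD45, at −1.20 ± 0.15 (1.72e-08) and −1.03 ± 0.23 (0.000431). With DEX alone against NT, Cd74 was at −2.78 ± 0.24 in GA (1.44e-11). Ptprc was then at −0.92 ± 0.22 in GA (0.00185) and did not pass in SO. The sum of the 4 pan-leukocyte genes ran from 9.45 to 17.0 CPM in NT and from 5.24 to 15.4 in DEX-receiving GA libraries. Of 3 neutrophil genes tested none passed in GA, and S100a8 and S100a9 were higher in SO, where the whole list of 12 summed to 0.402 to 1.14 CPM in NT and 0.45 to 3.22 in DEX-receiving mice and Ly6g, Mpo, Elane and Camp were at 0 in NT. The part of leukocyte number in the changes of the 10 genes was not tested.

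The treatments were compared with DEX alone, and all 7 comparisons of a muscle share the same DEX libraries. In GA without the 4 libraries the mean of the 6 extract groups was lower for 4 of 10 genes and higher for 0, where 9.57% of all genes passed (4.47% higher, 5.10% lower). Ccl6 was at −1.10 ± 0.24 (adjusted p = 0.00237), Ccl9 at −1.10 ± 0.22 (0.00121), Chil3 at −1.69 ± 0.42 (0.00714) and Cd163 at −0.38 ± 0.10 (0.0159). In DEX mouse 2 Ccl6, Ccl9 and Chil3 stood at 9.91, 4.74 and 2.95 CPM, and without it they were at −0.52 (0.237), −0.73 (0.0702) and −0.08 (0.949). Cd163 then was nearly as large, at −0.35, but did not pass (0.0721). With all libraries 0 of 10 passed (1.26% of all genes).

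By group, without the 4 libraries, Ccl6 was lower than in DEX in 6 of the 7 GA comparisons, Ccl9 in 4 and Chil3 in 3. With JGT02 at 400 mg/kg Ccl6 (−1.24 ± 0.33) and Chil3 (−2.30 ± 0.63) were lower (5.7% of all genes passed). With JGT03 at 100 mg/kg Ccl6 (−1.24 ± 0.33) and Ccl9 (−1.24 ± 0.31) were lower (1.17% of all genes), and with JGT03 at 400 mg/kg the same 2 genes (−1.23 ± 0.33 and −1.19 ± 0.30; 6.49% of all genes). With JGT04 at 100 mg/kg they were at −1.04 ± 0.33 and −1.19 ± 0.31 (9.36% of all genes). JGT04 at 400 mg/kg was lower for 6 genes, Ccl6 (−1.27 ± 0.35), Ccl9 (−1.51 ± 0.34), Chil3 (−2.11 ± 0.66), Cd163 (−0.76 ± 0.15), Lyz2 (−0.72 ± 0.21) and Csf1r (−0.48 ± 0.16), against 11.3% of all genes. Resveratrol was lower for Ccl6 (−1.06 ± 0.32), Chil3 (−2.32 ± 0.62) and Cd163 (−0.53 ± 0.13), against 9.47%. JGT02 at 100 mg/kg was lower for none (0.963% of all genes).

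DEX mouse 2 was the library that moved these values most. Without it Ccl6 was at −0.45 to −0.68 in the 6 comparisons (adjusted p = 0.214 to 0.429) and Chil3 at −0.50 to −0.71 in its 3 (0.551 to 0.692), and none passed. Ccl9 was at −0.82 to −0.87 in both JGT03 doses and JGT04 at 100 mg/kg (0.108 to 0.196) and passed in JGT04 at 400 mg/kg alone. Lyz2 in JGT04 at 400 mg/kg was at −0.51 (0.121). Leaving out other single libraries ended some calls with values of about the same size. In JGT03 at 100 mg/kg neither gene passed without DEX mouse 4 or any 1 of treated mice 2 to 5, with Ccl6 at −1.18 to −1.27 and Ccl9 at −1.18 to −1.24. The same held for Ccl6 in JGT03 at 400 mg/kg without treated mouse 2 (−1.05), in JGT04 at 100 mg/kg without DEX mouse 4 or treated mouse 2, 4 or 5 (−0.89 to −1.08) and with resveratrol without treated mouse 1, 2 or 5 (−1.0 to −1.03). It held for Chil3 in JGT02 at 400 mg/kg without treated mouse 1, 2 or 4 (−2.12 to −2.20) and in JGT04 at 400 mg/kg without any 1 treated mouse (−1.96 to −2.23). In JGT04 at 400 mg/kg it held for Csf1r without any 1 of 7 of the 8 libraries, all but DEX mouse 3 (−0.41 to −0.51), and for Lyz2 without treated mouse 4 (−0.68). The calls of Ccl9 and Cd163 in JGT04 at 400 mg/kg and of Cd163 with resveratrol passed whichever library was left out. With the term for the set of libraries no call passed in JGT04 at 100 mg/kg (Ccl6 −0.83, Ccl9 −1.05), JGT04 at 400 mg/kg (Csf1r −0.51, Ccl9 −1.16, Cd163 −0.54) or resveratrol (Ccl6 −0.50, Cd163 −0.31). All libraries of JGT04 at 400 mg/kg and of resveratrol lie in another set than the DEX libraries.

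With all libraries the picture in GA was set by G3-1. JGT02 at 100 mg/kg, its group, was then higher than DEX for 10 of 10 genes, from 1.47 ± 0.43 for Cd163 (adjusted p = 0.0282) to 3.57 ± 0.98 for Chil3 (0.0214), where 10.2% of all genes passed. Without G3-1 the 10 values ran from −0.68 for Chil3 up, with 7 turning negative and none passing. In the 6 other GA comparisons with all libraries 0 of 10 passed, where 0.808% (JGT02 400), 0.0207% (JGT03 100), 0.677% (JGT03 400), 1.38% (JGT04 100), 2.04% (JGT04 400) and 1.37% (resveratrol) of all genes did.

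In SO the differences from DEX turned on S2-4, a DEX library. With it, Ccl6, Ccl9 and Chil3 were lower in the mean of the 6 extract groups, at −3.28 ± 0.68 (adjusted p = 0.00114), −3.28 ± 0.63 (0.000546) and −4.25 ± 0.60 (1.04e-05), where 13.9% of all genes passed. Without the 4 libraries the values were −0.30 ± 0.43, −0.55 ± 0.42 and −0.64 ± 0.41, and 0 of 10 genes passed, where 24.8% of all genes did. By group with all libraries, 4 genes were lower with JGT02 at 400 mg/kg (Ccl6, Ccl9, Chil3 and Cd68; 17.1% of all genes), 3 with JGT03 at 100 (8.49%) and 400 mg/kg (3.06%), JGT04 at 100 mg/kg (8.95%) and resveratrol (12.7%), each time Ccl6, Ccl9 and Chil3, and 2 with JGT04 at 400 mg/kg (Ccl9 and Chil3; 4.58%). JGT02 at 100 mg/kg, which holds S3-5, was higher for C1qa (2.95 ± 0.88, 0.0286) and Cd163 (2.87 ± 0.75, 0.0141), against 8.82%. Without the 4 libraries 0 of 10 passed in JGT02 at 100 (28.4% of all genes) or 400 mg/kg (20.0%), JGT03 at 100 (20.2%) or 400 mg/kg (15.4%) or JGT04 at 100 (18.9%) or 400 mg/kg (10.0%). Resveratrol was lower for Cd163 alone (−1.02 ± 0.29, 0.0099, against 23.7% of all genes). Cd163 stood at 0.85 to 1.40 CPM in the 5 resveratrol libraries and at 1.82, 2.12 and 2.78 in the 3 DEX libraries, without overlap. The call was lost without DEX mouse 3 (0.108) or with the set term (0.892). All resveratrol libraries of SO lie in another set than the DEX libraries.

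Across the 9 groups, without the 4 libraries, groups next to each other in the order of the means overlapped for every gene in both muscles, while groups further apart could separate. Ccl9 in GA stood at 3.48 to 6.27 CPM in NT and at 0.788 to 1.10 in JGT04 at 400 mg/kg, and Cd163 at 5.25 to 5.72 in DEX and 2.98 to 3.33 in that group. For Ccl6 in GA the order ran from NT (7.20 ± 3.43 CPM, n = 5) and DEX (4.94 ± 3.44, n = 4) to JGT04 at 400 mg/kg (2.04 ± 0.337, n = 4), and for Ccl9 between the same groups from 4.18 ± 1.20 through 2.82 ± 1.45 to 0.984 ± 0.143. Cd163 ran from NT (5.67 ± 0.333) and DEX (5.42 ± 0.209) down to resveratrol (3.73 ± 0.783) and JGT04 at 400 mg/kg (3.18 ± 0.145) in GA, and from NT (2.69 ± 0.993) to resveratrol (1.10 ± 0.258) in SO. By mean, Chil3 had NT as its lowest group in both muscles (0.138 ± 0.0847 and 0.323 ± 0.299) and DEX as its highest (0.975 ± 1.32 and 1.02 ± 0.315). In GA the DEX mean was raised by mouse 2, and the order of the medians was another. There DEX (0.334 CPM) was below JGT02 at 100 mg/kg (0.425) and JGT03 at 400 mg/kg (0.347). NT (0.148) was above JGT02 at 400 mg/kg (0.138) and resveratrol (0.14).

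Single libraries beyond the 4 also stood out. In SO, JGT03 at 100 mg/kg mouse 3 was the highest of the 40 for Lyz2 (54.7 CPM), Adgre1 (2.59), Csf1r (14.2), Mrc1 (8.47), C1qa (13.8) and Chil3 (1.97), 6 of the 10 genes. JGT03 at 400 mg/kg mouse 3 was second for Lyz2 (37.5) and Csf1r (11.7). In GA, DEX mouse 2 was the highest of 42 for Adgre1 (2.73), Csf1r (14.6), Mrc1 (13.2) and Chil3 (2.95) and second for Cd68, Lyz2, Ccl6 and Ccl9. Cd68 was highest in resveratrol mice, mouse 4 in GA (9.78) and mouse 5 in SO (10.7).

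The genes varied together among the 82 libraries after group means were removed, on log2 CPM. Pearson's r was 0.878 between Lyz2 and C1qa, 0.862 between Csf1r and C1qa and 0.821 between Ccl6 and Ccl9, and lowest between Cd68 and Adgre1 (0.252) and between Cd68 and Cd163 (0.255). The points are libraries that share groups and scaling, and the values are a description. Of all other genes with a mean of at least 5 CPM in both muscles, F13a1, the factor XIII chain made by resident macrophages, was most like Csf1r (0.858), Mrc1 (0.829) and Lyz2 (0.827). Next were Tgfbi (0.811) and Lrp1 (0.783) for Csf1r, Dab2 (0.762) and Tgfbi (0.752) for Mrc1, and Postn (0.806), Cd74 (0.789) and Col3a1 (0.754) for Lyz2. For Chil3, among genes with a mean of at least 0.5 CPM, Ccr2 came first (0.620), followed by Mt2 (0.565) and Serpinb1a (0.549).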

How the data were processed

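Per the labels' protocols, RNA was taken with TRIzol, made into strand-specific libraries with an MGIEasy kit and sequenced as paired reads. The authors deposited expected counts per gene symbol, on GRCm38 per the submitters' processing notes, which list RSEM 1.3.3, STAR 2.7.3a, Trim Galore 0.6.5 and FastQC 0.11.9. Their settings, annotation, strand use and filters are not given in the sources used here, and 92.0% of the values were whole. The protocol speaks of 5 groups of mice, while the samples form 9.

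Expected counts were rounded, filtered with filterByExpr, scaled by TMM and tested with the quasi-likelihood test of edgeR 4.0.16 (R 4.3.3, limma 3.58.1), in 1 fit per muscle or 1 over both, with Benjamini-Hochberg adjustment over all genes tested. Alternatives were DESeq2 1.42.0, its size factors (RLE), no filter, fits limited to the groups in a comparison, a block for mouse number, a term for the listed-order set, and leaving out the 4 libraries or each library in turn. DESeq2, RLE, the set term and leaving out each library were also run without the 4 libraries, a choice made after the data were seen. The 10 genes and the 14 lists beside them were chosen with earlier results of these data known. Genes named from the lists had to pass in DEX against NT, up to 3 per direction by p. They also needed a mean of 1 CPM over all libraries of the muscle, the 4 included. Genes named outside that rule, among them Ccr1 and the passing list genes over all DEX-receiving groups, were chosen after their values were seen. Likeness used log2 CPM with a prior count of 2 and left out predicted genes. Promoters came from RefSeq, and those of 7 of the 10 genes were searched. For the 10 genes, promoters on chromosome 18, where Csf1r lies, were left out. Adgre1 and C1qa had no promoter among those searched. The test was checked on simulated data for DEX against NT in each muscle alone. The simulated spread was that without the 4 libraries and no library stood apart. The check thus does not cover fits with the 4 libraries or the other comparisons. Tables and figures used matplotlib 3.10.9, scipy 1.17.1, numpy 2.4.6 and pandas 2.3.3 in Python 3.11.15.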

Additional observations from a re-analysis of the deposited data

Results flagged for a closer look

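Of 180 sets of libraries (10 genes in 18 groups), 45 held a library whose gap to its nearest neighbour took up most of the group's range. Chance flags about 1 in 20 independent groups, but the genes vary together and share the libraries, so the number of sets is not one of independent draws. G3-1 and S3-5 accounted for 10 each and S2-4 for 7. In G3-1 the values were 136.2 CPM for Cd68, 1088.7 for Lyz2, 72.3 for Adgre1, 158.9 for Csf1r, 165.0 for Mrc1, 260.9 for C1qa, 49.0 for Cd163, 50.6 for Chil3, 176.5 for Ccl6 and 74.1 for Ccl9. In S3-5 they were 145.2, 1348.4, 65.3, 183.5, 170.1, 347.8, 69.9, 35.2, 222.0 and 87.1 CPM for the same genes in that order. In S2-4 they were 57.7 CPM for Cd68, 188.0 for Lyz2, 5.74 for Adgre1, 21.6 for Mrc1, 69.3 for Chil3, 107.5 for Ccl6 and 69.3 for Ccl9.

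The other 18 were spread over other libraries. In SO, mouse 3 of JGT03 at 100 mg/kg was high for Lyz2 (54.7 CPM), Adgre1 (2.59), Mrc1 (8.47), Ccl6 (4.41) and Ccl9 (3.63), and mouse 3 of JGT03 at 400 mg/kg for Ccl9 (2.64). Mouse 5 of the SO resveratrol group was high for Ccl6 (4.3) and Ccl9 (2.77), and mouse 5 of SO JGT04 at 100 mg/kg for C1qa (6.05). Mouse 1 of SO JGT04 at 400 mg/kg was low for Ccl6 (1.04). In GA, DEX mouse 2 was high for Mrc1 (13.2) and Chil3 (2.95), NT mouse 3 for Ccl9 (6.27), and mouse 1 of JGT03 at 100 mg/kg for C1qa (7.19) and Ccl6 (3.18). In the GA resveratrol group mouse 4 was high for Cd68 (9.78), and mouse 1 was high for Chil3 (0.501) and low for Adgre1 (0.501).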

How the results depend on the processing

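Leaving out S2-4, G3-1 and S3-5, or these and S4-1, moved most counts of the 10 genes that passed. Without the 3 or the 4 libraries the counts in GA were 1 for DEX against NT, 5 for all DEX groups, 4 for the extracts, 0 for JGT02 at 100 mg/kg, 2 for JGT02 at 400 mg/kg, JGT03 at 100 and 400 mg/kg and JGT04 at 100 mg/kg, 6 for JGT04 at 400 mg/kg and 3 for resveratrol. In SO they were 1 for DEX against NT, 1 for resveratrol and 0 for the extracts together and each alone. All DEX groups in SO gave 4 without the 3 and 5 without the 4, and SO against GA in NT gave 6 and 5. Values that changed sign were, for GA JGT02 at 100 mg/kg (without the 3, the 4 or G3-1 alone), C1qa −0.08, Ccl6 −0.61, Ccl9 −0.56, Cd163 −0.08, Chil3 −0.68, Csf1r −0.07 and Lyz2 −0.03. For SO DEX against NT they were Ccl6 −0.86 and −0.85 and Ccl9 −0.49 and −0.48, without the 3 and the 4. For Ccl6 in all DEX groups of SO they were −1.07 and −1.08. For SO JGT02 at 100 mg/kg they were C1qa −0.68 and −0.69 and Cd163 −0.58 and −0.59.

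With all libraries, the listed-order set as a term gave 0 in SO for the extracts, both JGT03 doses, both JGT04 doses and resveratrol. Added without the 4 libraries it gave 1 for GA JGT03 at 100 mg/kg, 0 for both GA JGT04 doses and GA resveratrol, 0 for SO all DEX groups and SO resveratrol, and 2 for SO against GA. Only JGT04 at 100 mg/kg in GA and JGT02 at 400 mg/kg in SO hold libraries of different sets. Within a muscle the term thus rests on that group. DESeq2 gave 1 for GA JGT02 at 100 mg/kg, 1 for SO DEX against NT, JGT02 at 400 mg/kg and JGT04 at 100 mg/kg, and 0 for the other SO treatments and the extracts together, but with all libraries it gave no adjusted p for 197 of 220 values. Fits limited to the groups in a comparison gave in GA 0 for JGT02 at 100 mg/kg, 1 for JGT03 at 400 mg/kg, 2 and 4 for JGT04 at 100 and 400 mg/kg and 1 for resveratrol, in SO 1 for DEX against NT and JGT04 at 100 mg/kg and 0 for both JGT02 and JGT03 doses and JGT04 at 400 mg/kg, and 6 for SO against GA. No filter on low counts gave 1 for SO DEX against NT, JGT03 at 400 mg/kg and JGT04 at 400 mg/kg. The cause of these moves was not tested.

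With a replicate block for the mouse number the counts were 1 for GA all DEX groups, 0 for JGT02 at 100 mg/kg in GA and in SO, and 1 for SO JGT04 at 400 mg/kg. The labels use the same mouse numbers for the GA and SO libraries of a group. GA and SO libraries of the same group and number deviated together (r over 0.1) in 9 of 39 pairs, with a median r of 0.00856. Of the 39, 9 correlated best with their own number. Different muscles of 1 animal need not deviate together, so these values cannot tell whether the libraries are paired. The main fit over both muscles took them as unpaired.

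With each library of a comparison left out in turn, the counts with all libraries ran from 0 to 10 for GA JGT02 at 100 mg/kg, 0 to 5 for GA all DEX groups, 0 to 4 for the GA extracts and 0 to 0 for the other GA comparisons. In SO they ran from 0 to 4 for DEX against NT, 0 to 1 for all DEX groups, 0 to 9 for the extracts, 1 to 9 for JGT02 at 100 mg/kg, 0 to 5 for JGT02 at 400 mg/kg, 0 to 4 for JGT04 at 100 mg/kg, and 0 to 3 for both JGT03 doses, JGT04 at 400 mg/kg and resveratrol. The difference between muscles in DEX against NT gave 0 to 1. Without the 4 libraries the counts ran in GA from 1 to 2 for DEX against NT, 5 to 6 for all DEX groups, 0 to 5 for the extracts, 0 to 3 for JGT02 at 400 mg/kg, both JGT03 doses and JGT04 at 100 mg/kg, 2 to 7 for JGT04 at 400 mg/kg and 1 to 5 for resveratrol. In SO they ran from 0 to 1 for DEX against NT, JGT03 at 400 mg/kg and resveratrol and from 2 to 5 for all DEX groups, and SO against GA in NT gave 4 to 8.

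Values that changed sign when 1 library was left out had these lowest and highest values. In GA JGT02 at 100 mg/kg C1qa ran from −0.08 to 3.25, Ccl6 from −0.61 to 3.65, Ccl9 from −0.56 to 3.03, Cd163 from −0.08 to 1.70, Chil3 from −0.68 to 5.18, Csf1r from −0.07 to 2.06 and Lyz2 from −0.03 to 3.57, the lowest each time without G3-1. In SO DEX against NT Ccl6 ran from −0.85 to 3.40 and Ccl9 from −0.48 to 3.34, the lowest without S2-4. In the SO extracts Ccl6 ran from −4.12 to 0.55 and Ccl9 from −3.99 to 0.12, the lowest without S3-5 and the highest without S2-4. In SO JGT02 at 100 mg/kg Adgre1 ran from −1.77 to 4.29, C1qa from −1.19 to 3.47, Ccl6 from −4.24 to 4.55, Ccl9 from −4.18 to 3.41, Cd163 from −0.51 to 3.19, Cd68 from −2.45 to 2.89, Chil3 from −4.60 to 2.94, Csf1r from −1.24 to 2.35, Lyz2 from −1.83 to 3.73 and Mrc1 from −1.22 to 3.20, the lowest each time without S3-5. Chil3, at no more than 18 counts in each NT library, is the gene that depth limits most.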
